A study of Rattus norvegicus with 12 samples.

Results

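Cardiac fibroblasts keep a set of transcription factors from their embryonic origin in the epicardium, the outer cell layer of the heart, and from the heart fields. The RNA levels of 10 such factors, Tcf21, Hand2, Gata4, Gata6, Tbx5, Tbx18, Tbx20, Wt1, Meox1 and Meis1, were followed here after depletion of Yap, Wwtr1 or both. The factors were picked by gene symbol, and all 10 were found among the 12271 genes of the normalized table and passed the filter for testing. In cells given both siRNAs, Tcf21 and Gata6 fell, Tbx5, Tbx18 and Hand2 rose, and the other 5 factors did not pass the test. Of all genes, 32.8% passed in that comparison, so 5 calls among 10 factors are close to the background share. With Wwtr1 siRNA alone Gata4 and Gata6 fell (8.96% of all genes passed), and with Yap siRNA alone no factor passed (4.80%). In a fit of the negative, Yap and Wwtr1 siRNA libraries with the replicate number as a block, added after the values were seen, Gata4 and Hand2 passed as higher with Yap siRNA, and Tcf21 passed as lower with Wwtr1 siRNA. That fit called 16.0% of all genes with Yap siRNA and 21.3% with Wwtr1 siRNA.

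Yap (gene symbol Yap1) and Wwtr1, also named Taz, are related coactivators that are held in check by the Hippo kinases and reach DNA mainly through TEAD proteins. The study depleted them to learn which expression changes follow the loss of either coactivator and which need the loss of both. Cardiac fibroblasts, which make the collagen matrix of the heart, were isolated from ventricles of Sprague Dawley rats at 2 days of age (P2), and no group carried an engineered allele. All groups were transfected with pairs of siRNAs at 25 nM each, and the labels place collection 48 h after transfection. The study's methods can be read as counting the 48 h from a later change of medium, so the exact time is uncertain.

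The 4 groups of 3 libraries received MISSION universal negative control siRNAs (#1 + #2), Yap siRNA, Wwtr1 siRNA, or Yap and Wwtr1 siRNA together (the double knockdown). The study describes the 3 replicates of a group as cells from separate litters. For the double knockdown the siRNA field of the labels lists reagents for Wwtr1 alone, and the design text of the series names cardiac myocytes where its title and sample labels name fibroblasts.

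In the double knockdown libraries Yap1 was at 713, 739 and 1474 normalized counts in replicates 1, 2 and 3, against 3267 ± 442 (SD, n = 3) in control cells. Wwtr1 was at 818, 731 and 1056 against 2403 ± 146. Both genes were therefore low in the double knockdown, least so in replicate 3. Yap siRNA alone left Yap1 at 578 ± 46.8, and Wwtr1 siRNA alone left Wwtr1 at 570 ± 59.3. Double knockdown replicate 3 also stood apart over all genes. The chi-square per gene between its counts, as recovered from the normalized values, and those of replicates 1 and 2 was 119.8 and 124. It was 19.6 to 49.2 for every other pair within a group. The calls of the 10 factors in the double knockdown are therefore given below with and without it. Recovered totals were 33.9 to 41.1 M counts per library. All 12 fibroblast markers examined were above 0 in every library, and their summed level was 3155070 to 4353350 normalized counts. The sum over 14 cardiomyocyte markers was 45149 to 102125, so transcripts of cardiomyocyte genes were present in every culture. Of 17 markers of mesothelium and epicardium 13 were in the table, among them Krt18 and Krt19 with libraries at 0.

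These factors work in overlapping circuits. Tcf21 and Wt1 mark epicardial cells, and Tcf21 is needed for the cells that become cardiac fibroblasts. The zinc-finger factors Gata4 and Gata6, the T-box factors Tbx5, Tbx18 and Tbx20 and the basic helix-loop-helix factor Hand2 act in heart formation in muscle cells as well as in fibroblasts, and Gata4, Tbx5 and Hand2 belong to the mixtures used to turn fibroblasts into cardiomyocyte-like cells. Meox1 and Meis1 are homeobox factors, Meox1 being known in activated fibroblasts and Meis1 in the cell cycle exit of cardiomyocytes.

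Promoters are shown for the 3 factors that rose in the double knockdown and for Tcf21, which fell and whose promoter holds a GATA match. The sequences are the 250 bases before the RefSeq start of each gene on the rat assembly GRCr8, written 5′ to 3′ on the gene's strand, with letters that match a searched motif in capitals. They lie at chr1:24520249-24520498 on the plus strand (Tcf21) and, on the minus strand, at chr12:42395360-42395609 (Tbx5), chr8:97559966-97560215 (Tbx18) and chr16:37931489-37931738 (Hand2).
Tcf21: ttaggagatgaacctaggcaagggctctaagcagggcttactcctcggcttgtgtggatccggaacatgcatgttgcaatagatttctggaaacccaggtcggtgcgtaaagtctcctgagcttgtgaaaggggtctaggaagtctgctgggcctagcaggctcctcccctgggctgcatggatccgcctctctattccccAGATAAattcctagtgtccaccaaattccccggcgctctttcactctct
Tbx5: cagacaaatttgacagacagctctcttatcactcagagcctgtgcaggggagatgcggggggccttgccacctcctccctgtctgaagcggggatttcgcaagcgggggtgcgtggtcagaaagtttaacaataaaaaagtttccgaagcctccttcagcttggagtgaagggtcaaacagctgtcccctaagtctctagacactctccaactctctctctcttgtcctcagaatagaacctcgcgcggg
Tbx18: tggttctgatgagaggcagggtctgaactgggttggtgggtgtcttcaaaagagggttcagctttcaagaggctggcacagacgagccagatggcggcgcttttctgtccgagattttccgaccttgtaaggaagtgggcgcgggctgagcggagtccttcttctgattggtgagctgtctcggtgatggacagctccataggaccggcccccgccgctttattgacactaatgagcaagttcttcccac
Hand2: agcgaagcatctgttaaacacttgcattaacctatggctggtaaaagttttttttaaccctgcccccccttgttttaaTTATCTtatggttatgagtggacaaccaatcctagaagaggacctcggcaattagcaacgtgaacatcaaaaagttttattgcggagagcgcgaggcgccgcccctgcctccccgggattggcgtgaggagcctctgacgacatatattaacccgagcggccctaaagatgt

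The RefSeq table gave a promoter for 8 of the 10 factors, Gata4 and Meox1 being those without one. On both strands of these promoters the letters GGAATG, which bind TEAD proteins, were found in 0 of 8, against 12.1% of 33469 rat promoters of the same length. The letters TGANTCA (AP-1) were also in 0 of 8, against 6.34%, whereas AGATAA, the letters that bind Gata proteins, was in 2 of 8, against 10.3%. It stood 49 to 44 bases before the start of Tcf21 and, as TTATCT, 172 to 167 bases before that of Hand2. No match overlapped one of another motif. A letter match describes the sequence and is not a measured binding site, and these promoters are a small window of each gene.

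**Figure D1:**
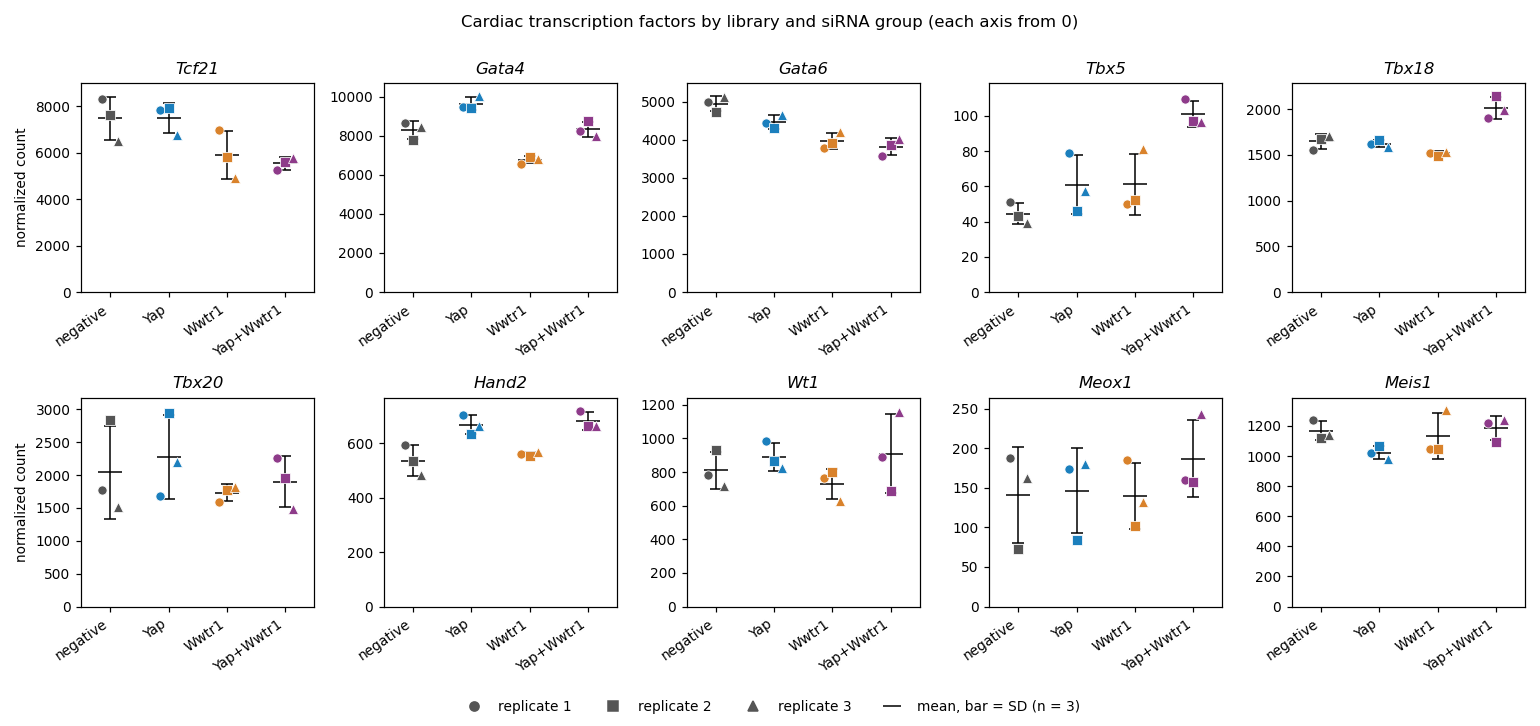
Normalized counts of the 10 factors (y axis, from 0, a scale of its own in each panel) in the 12 libraries, by siRNA group (x axis). Symbols stand for the replicate number, and horizontal lines and bars are the mean and SD of 3 libraries. Tcf21 and Gata6 are lower and Tbx5, Tbx18 and Hand2 higher in all double knockdown libraries than in any negative siRNA library, whereas Tbx20, Wt1 and Meox1 spread widely within groups.

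Differences below are log2 fold changes on log2(normalized count + 1), with adjusted p-values from limma over the 11871 genes tested and a threshold of 0.05. Percentages of change come from the same scale. The table gives no gene lengths, so levels are compared between groups for each gene and not between genes.

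Tcf21, the basic helix-loop-helix factor of the fibroblast lineage, was at 8297, 7638 and 6484 normalized counts in negative siRNA replicates 1, 2 and 3 and at 7825, 7902 and 6761 with Yap siRNA. It was at 6969, 5829 and 4906 with Wwtr1 siRNA and at 5243, 5610 and 5772 in the double knockdown. The double knockdown libraries all lay below those with negative or Yap siRNA, while the Wwtr1 libraries overlapped every other group. In the double knockdown Tcf21 fell by 0.42 (SE 0.12, adjusted p 0.0213), a change of -25.5%. It was also lower than with Yap siRNA alone (-0.43, adjusted p 0.0389). With Wwtr1 siRNA the difference was -0.35 (SE 0.12, adjusted p 0.112). In the block over these 3 groups, which called 21.3% of genes for Wwtr1 siRNA, this difference passed at -0.35 (adjusted p 0.0032). In that fit Tcf21 was also higher with Yap than with Wwtr1 siRNA, by 0.36 (adjusted p 0.0031). Without the block, both differences also passed when Wwtr1 replicate 1 was left out (adjusted p 0.0443 and 0.0394). Omitting 1 library at a time ended the call against Yap siRNA in 7 of 12 fits. The call in the double knockdown against negative siRNA was lost when negative siRNA replicate 1 or 2 or double knockdown replicate 1 was left out, with differences of -0.52 to -0.35 over the 12 omissions. From high to low the means were Yap, negative, Wwtr1 and double knockdown, and in the fit of all 12 libraries no neighbours in this order differed past the threshold.

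Hand2, a basic helix-loop-helix factor of the heart and its fibroblasts, was at 594, 534 and 483 normalized counts with negative siRNA and at 705, 636 and 664 with Yap siRNA. It was at 560.3, 555 and 570.1 with Wwtr1 siRNA and at 720.1, 662 and 665 in the double knockdown. All libraries that had received Yap siRNA, alone or with Wwtr1 siRNA, stood above all libraries that had not. In the double knockdown Hand2 rose by 0.35 (SE 0.10, adjusted p 0.0156), or 27.4%. The difference with Yap siRNA was of like size, 0.32 (SE 0.10), and missed the threshold (adjusted p 0.0856), and it passed in the block over 3 groups (0.32, adjusted p 0.0468). Wwtr1 siRNA gave 0.07 (95% interval -0.14 to 0.28). Between the double knockdown and Yap siRNA the difference was 0.03 (95% interval -0.18 to 0.24). Between the double knockdown and Wwtr1 siRNA it was 0.28 (adjusted p 0.0602), and 0.28 (adjusted p 0.0461) with the replicate block over all 12 libraries. The rise in the double knockdown lost its call without negative siRNA replicate 3 or double knockdown replicate 1 (0.28 to 0.43 over the 12 omissions) and in a fit of those 2 groups alone (adjusted p 0.0644).

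Gata4, a zinc-finger activator of cardiac genes, was at 8674, 7759 and 8458 normalized counts with negative siRNA and at 9481, 9428 and 10009 with Yap siRNA. It was at 6558, 6903 and 6829 with Wwtr1 siRNA and at 8223, 8762 and 7981 in the double knockdown. The 3 groups with a single siRNA treatment (negative, Yap and Wwtr1) did not overlap, and the double knockdown overlapped negative siRNA alone among them. Gata4 fell with Wwtr1 siRNA by 0.29 (SE 0.06, adjusted p 0.0134), or -18.4%. With Yap siRNA the difference was 0.22 (SE 0.06, adjusted p 0.0753), and 0.22 (adjusted p 0.0242) in the block over 3 groups. The single siRNAs differed from each other by 0.51 (SE 0.06, 95% interval 0.37 to 0.65, adjusted p 0.000982), with Yap siRNA the higher. The double knockdown stood between the single knockdowns, higher than Wwtr1 siRNA by 0.30 (adjusted p 0.00698) and lower than Yap siRNA (-0.21, adjusted p 0.0438). The first of these calls was lost without replicate 1 or replicate 2 of every group. Against negative siRNA it differed by 0.00 (95% interval -0.13 to 0.14). The fall with Wwtr1 siRNA lost its call without negative siRNA replicate 1 or 3 or Wwtr1 replicate 1 (highest adjusted p 0.0591), whereas the difference between the single siRNAs passed in all 12 omissions of 1 library (0.48 to 0.53) but not without replicate 1 or replicate 2 of every group (0.50 and 0.54, adjusted p 0.0534 and 0.064 by limma). The lower level than with Yap siRNA alone was lost in 10 of the 12.

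Gata6, the paralog of Gata4, was at 5000.5, 4734 and 5123 normalized counts with negative siRNA and at 4448, 4301 and 4658 with Yap siRNA. It was at 3776, 3930 and 4208 with Wwtr1 siRNA and at 3585, 3857 and 4029 in the double knockdown. Every library with a coactivator depleted was below every negative siRNA library, and Wwtr1 siRNA and the double knockdown overlapped. Gata6 fell by 0.32 with Wwtr1 siRNA (SE 0.07, adjusted p 0.0128), or -19.8%, and by 0.37 in the double knockdown (SE 0.07, adjusted p 0.00151), or -22.8%. With Yap siRNA the difference was -0.15 (SE 0.07, adjusted p 0.252). The double knockdown was lower than Yap siRNA (-0.23, adjusted p 0.0467), and against Wwtr1 siRNA it differed by -0.05 (95% interval -0.20 to 0.09). The block over 3 groups placed Yap above Wwtr1 siRNA by 0.17 (adjusted p 0.0417). The fall in the double knockdown passed in all 12 omissions of a library (-0.41 to -0.33), and the lower level than with Yap siRNA lost its call in 10. The fall with Wwtr1 siRNA lost its call without negative siRNA replicate 3 or without Wwtr1 replicate 1 or 2.

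Tbx5, a T-box factor of the atria, left ventricle and forelimb, was at 51.3, 43.0 and 39.3 normalized counts with negative siRNA and at 78.9, 46.0 and 57.6 with Yap siRNA. It was at 50.1, 52.0 and 81.3 with Wwtr1 siRNA and at 109, 97.0 and 96.5 in the double knockdown. The 3 double knockdown libraries were above all 9 others, and the 3 other groups overlapped. Tbx5 rose in the double knockdown by 1.17 (SE 0.28, 95% interval 0.57 to 1.77, adjusted p 0.00704), or 125%, and passed in all 12 omissions of 1 library (1.09 to 1.27), but not without replicate 2 of every group. The single siRNAs gave 0.42 each (SE 0.28, adjusted p 0.448 for Yap and 0.391 for Wwtr1). Against the single knockdowns the double knockdown differed by 0.75 in both cases (adjusted p 0.0921 for Yap and 0.0773 for Wwtr1), which missed the threshold.

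Tbx18, a T-box factor of the epicardium and the sinus node, was at 1558, 1673 and 1706 normalized counts with negative siRNA and at 1623, 1657 and 1587 with Yap siRNA. It was at 1519, 1491 and 1533 with Wwtr1 siRNA and at 1899.6, 2142 and 1993 in the double knockdown. The double knockdown libraries stood above all 9 others, and the Wwtr1 libraries below all 9 others. Tbx18 rose in the double knockdown by 0.29 (SE 0.07, adjusted p 0.00696), or 22.2%. It was also higher there than with Yap siRNA, by 0.31 (adjusted p 0.0119), and than with Wwtr1 siRNA, by 0.41 (adjusted p 0.00206). The single siRNAs gave -0.02 (Yap, adjusted p 0.911) and -0.12 (Wwtr1, adjusted p 0.321). The double effect exceeded the sum of the single effects by 0.43 (SE 0.10), the interaction, which missed the threshold (adjusted p 0.0571). The rises against negative and Wwtr1 siRNA passed in all 12 omissions of 1 library, but neither passed without replicate 2 of every group, nor the first without replicate 1 of every group. The rise against Yap siRNA lost its call without Yap replicate 3.

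Tbx20, a T-box factor of cardiac muscle and valves, was at 1768, 2843 and 1510.0 normalized counts with negative siRNA and at 1681, 2947 and 2199.6 with Yap siRNA. It was at 1584, 1779 and 1825 with Wwtr1 siRNA and at 2255, 1958 and 1480.4 in the double knockdown. All 4 groups overlapped, and replicate 2 was the highest library with negative and with Yap siRNA. The differences from negative siRNA were 0.17 (Yap), -0.19 (Wwtr1) and -0.07 (double), with an SE of 0.24. The interval in the double knockdown was -0.60 to 0.46.

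Wt1, the zinc-finger factor of epicardium and mesothelium, was at 785, 932 and 715 normalized counts with negative siRNA and at 984, 865 and 824 with Yap siRNA. It was at 765, 799 and 628 with Wwtr1 siRNA and at 888, 685 and 1157 in the double knockdown. The double knockdown held both its highest and, apart from Wwtr1 replicate 3, its lowest level. The differences were 0.14, -0.15 and 0.14 for Yap, Wwtr1 and both (SE 0.17), and the interval in the double knockdown was -0.24 to 0.52.

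Meox1 was at 188, 73.0 and 162 normalized counts with negative siRNA and at 174, 84.6 and 180.2 with Yap siRNA. It was at 185, 102 and 132 with Wwtr1 siRNA and at 160.1, 157 and 243 in the double knockdown. The groups overlapped, and replicate 2 was the lowest library of each of the 4 groups. The difference in the double knockdown was 0.48 (SE 0.39, 95% interval -0.37 to 1.34), and the single siRNAs gave 0.08 and 0.05. That interval includes no change, and values inside it were not excluded with this spread.

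Meis1 was at 1239, 1122 and 1139 normalized counts with negative siRNA and at 1020.4, 1069 and 980.4 with Yap siRNA. It was at 1043, 1049 and 1306 with Wwtr1 siRNA and at 1219, 1096 and 1239.9 in the double knockdown. The Yap siRNA libraries lay below all negative siRNA libraries, with a difference of -0.19 (SE 0.10, adjusted p 0.321). The double knockdown differed from negative siRNA by 0.02 (95% interval -0.19 to 0.24).

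**Figure D2:**
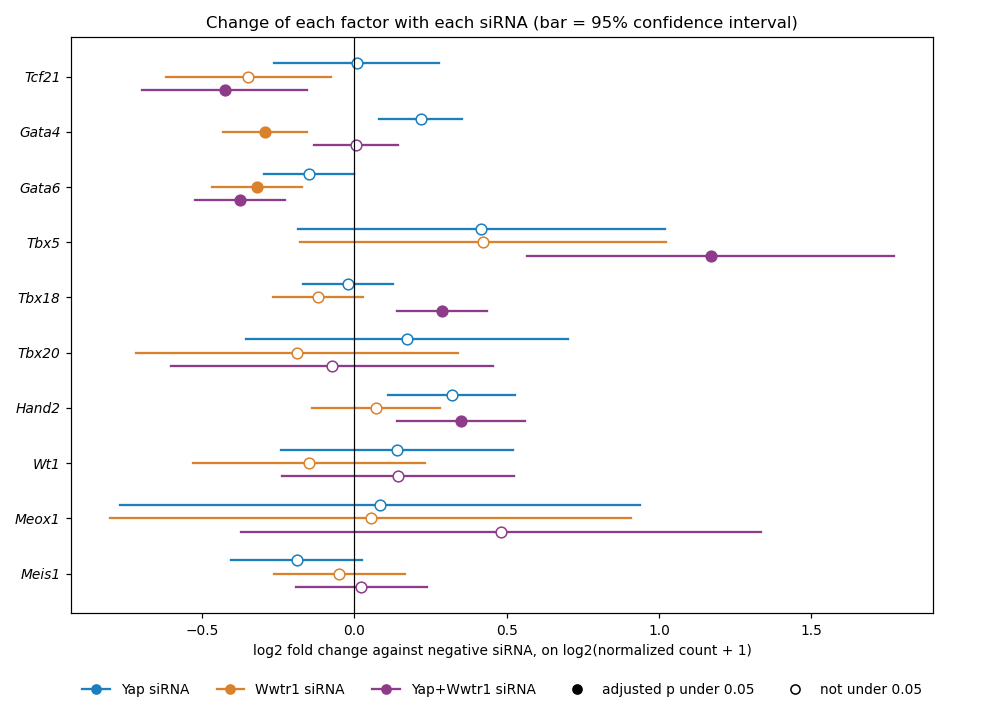
Log2 fold change of each factor against negative siRNA (x axis) for Yap, Wwtr1 and double siRNA, with 95% confidence intervals from limma as bars. Filled points have an adjusted p under 0.05. Gata4 lies at 0.22 with Yap and -0.29 with Wwtr1 siRNA, and Tbx5 has the highest point of the set, 1.17 in the double knockdown.

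The counts of factors called were read against the share of all genes called in the same comparison. With Yap siRNA limma called 0 of 10 factors (3 at an unadjusted p under 0.05, namely Gata4, Gata6 and Hand2), and it called 4.80% of all genes. With Wwtr1 siRNA it called 2 of 10, both lower, against 8.96%. The block over the negative, Yap and Wwtr1 groups took their replicate numbers as pairing the libraries, which the sample titles do not state. It called 2 of 10 with Yap siRNA against 16.0% of genes and 3 of 10 with Wwtr1 siRNA against 21.3%. In the double knockdown the fit of all 12 libraries without a block called 5 of 10 against 32.8%, with 3 factors higher (17.1% of genes) and 2 lower (15.6%). The libraries of the double knockdown and negative siRNA did not overlap for the same 5 of 10 factors, against 44.6% of genes. This share was not counted for the single siRNAs, so a lack of overlap there has no background beside it. The median size of the log2 difference was 0.32 over the factors and 0.27 over all genes. With only 10 factors, 5 calls or 5 non-overlapping factors are close to these background shares and are not read as particular to the factors.

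Between the knockdowns, 4 of 10 factors differed for double against Yap siRNA (Tbx18 higher, Tcf21, Gata4 and Gata6 lower), where 13.8% of genes did. For double against Wwtr1 siRNA 2 of 10 differed (Gata4 and Tbx18, both higher), where 19.9% did. For Yap against Wwtr1 siRNA only Gata4 of the 10 differed, where 8.79% of genes did. The block over 3 groups called 3 of 10 there (Tcf21, Gata4 and Gata6), against 22.6% of genes. For the interaction 0 of 10 were called (Tbx18 alone at an unadjusted p under 0.05), where limma called 1.03% of genes. Comparisons with negative siRNA share the same 3 control libraries, and those with the double knockdown share its 3 libraries.

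Muscle, vessel and immune markers were measured beside these results, because several of the factors are also active in cardiomyocytes. The counts of markers called in the double knockdown stand beside the 17.1% of all genes that rose and the 15.6% that fell. There 4 of 14 cardiomyocyte markers rose and 0 fell, with a median difference of 0.71. Their summed level was 45149 to 80393 normalized counts with negative siRNA and 78025 to 102125 in the double knockdown, with no marker at 0. Replicate 3 had the lowest sum in each group. Of 10 endothelial markers 5 rose, and their sum went from 1258 to 1676 with negative siRNA to 2109 to 2971, where Emcn and Cldn5 had libraries at 0. None of 9 macrophage markers passed. Their sum was 12838 to 18673 with negative siRNA, and in the double knockdown it was 4500 and 8536 in replicates 1 and 2 and 29137 in replicate 3. Of 13 mesothelial and epicardial markers 1 rose and 1 fell, with sums of 3456 to 5279 against 3011 to 5056. Of 12 fibroblast markers 5 rose and 2 fell, and their sum in the double knockdown was 3155070 to 4353350, the highest in replicate 3. Of 10 mural cell markers 4 rose and 2 fell, but their sum went down without overlap, from 481976 to 605231 to 222925 to 361377. The sum is carried mostly by the smooth muscle genes Acta2 (-1.18) and Tagln (-1.16), the 2 that fell, whereas Rgs5 (0.97), Kcnj8 (1.86), Abcc9 (1.91) and Des (1.37) rose. These 6 were named after their values were seen.

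Some of these sums also differed with the single siRNAs, where 4.80% (Yap) and 8.96% (Wwtr1) of all genes were called. The fibroblast sum was 4113830 to 4302960 with Yap siRNA, above every negative siRNA library (3511150 to 3929180), and 3395920 to 3669390 with Wwtr1 siRNA. The macrophage sum with Wwtr1 siRNA was 7745 to 11661, below every negative siRNA library, and 0 of 9 markers passed. The endothelial sum was 1785 to 2089 with Yap siRNA and 1686 to 1791 with Wwtr1 siRNA, all above negative siRNA, and 0 and 1 of 10 markers rose. The mural sum with Yap siRNA was 333493 to 413369, below every negative siRNA library, with 0 of 10 passing and Acta2 (-0.78) and Tagln (-0.44) again carrying most of it. The cardiomyocyte sum was 52922 to 89265 and 49366 to 91765 with Yap and Wwtr1 siRNA, and it overlapped negative siRNA. In whole cultures, fewer cells of a type and less RNA per cell cannot be told apart. The part of other cells in the levels of the 10 factors was not tested.

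Leaving out negative siRNA replicate 3, the library with the lowest cardiomyocyte sum, kept 4 of the 5 calls in the double knockdown, where 23.1% of genes were called. Tbx5 was then higher by 1.09 (adjusted p 0.0300), Tbx18 by 0.32 (adjusted p 0.0147) and Hand2 by 0.28 (adjusted p 0.0713). Leaving out double knockdown replicate 3, which stood apart and in which Yap1 was least reduced, kept all 5 calls, where 34.2% of genes were called. It left 3 factors called against Yap siRNA (15.8% of genes) and 2 against Wwtr1 siRNA (18.9%). Without it Tcf21 differed by -0.45, Gata6 by -0.41, Tbx5 by 1.20, Tbx18 by 0.29 and Hand2 by 0.37.

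**Figure D3:**
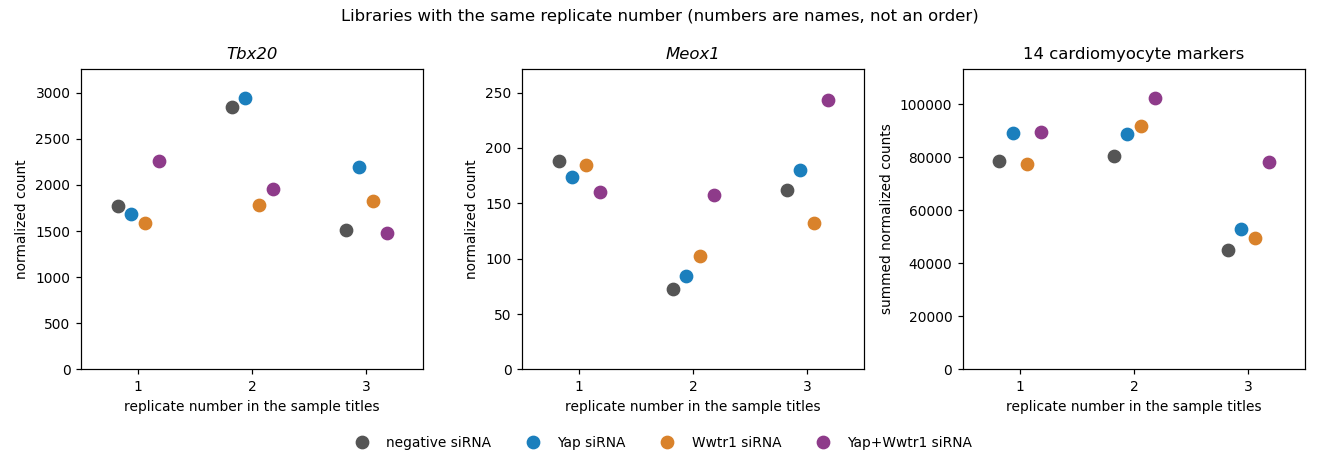
Normalized counts of Tbx20 and Meox1 and the summed normalized counts of 14 cardiomyocyte markers (y axes, from 0), by the replicate number in the sample titles (x axis) and siRNA group (colour). Libraries numbered 2 hold the lowest Meox1 level of each group and the highest Tbx20 level with negative and Yap siRNA, and libraries numbered 3 hold the lowest cardiomyocyte sum of each group.

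In Tbx20 and Meox1, libraries of the same number stood apart in several groups. Meox1 in replicate 2 was 73.0, 84.6 and 102 with negative, Yap and Wwtr1 siRNA and 157 in cells given both, and within each group the other libraries were higher, though in the double knockdown replicate 1 was close by at 160.1. Tbx20 in replicate 2 was 2843 and 2947 with negative and Yap siRNA, with the other libraries of those groups at 1510.0 to 2199.6, but replicate 2 did not stand apart with Wwtr1 siRNA (1779) or in the double knockdown (1958).

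Other transcription factors of the same families and circuits were examined as 3 lists. Of 22 paralogs and heterodimer partners of the factors, 20 were in the table and 18 were tested, of which 7 rose and 2 fell in the double knockdown, with a median difference of 0.24 where the median of all genes was 0.00353. Beside this and the next 2 lists stand the 17.1% of all genes that rose and the 15.6% that fell. Gata3, a GATA factor best known in T cells and epithelia, went from 501, 428 and 585 normalized counts with negative siRNA to 107, 155 and 126 and fell by 1.96 (SE 0.21, adjusted p 6.24e-05). Tbx3, a T-box repressor of the conduction system, went from 96.5, 89.0 and 79.6 to 327, 324 and 329 and rose by 1.88 (SE 0.28, adjusted p 0.00044). The related Tbx2 rose by 0.83 (SE 0.15, adjusted p 0.00153), and Gata2, a factor of blood and endothelium, rose by 1.42 (SE 0.27, adjusted p 0.00206). For none of these 4 did the libraries of the double knockdown and negative siRNA overlap. The 4 were picked by their size of change in this comparison, where 44.6% of all genes did not overlap. With Yap siRNA 0 of the 18 rose and 1 fell (4.80% of all genes were called), and with Wwtr1 siRNA 0 rose and 1 fell (8.96%).

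Of 17 cofactors and cardiac muscle factors measured, 8 rose and 2 fell in the double knockdown, with a median difference of 0.20. Nfatc1, a calcineurin-dependent factor of the endocardium, went from 1569, 1554 and 1434 normalized counts to 3315, 3565 and 2905 and rose by 1.10 (SE 0.09, adjusted p 1.54e-05). The homeobox factors Irx3 and Irx5 rose by 1.53 (SE 0.33, adjusted p 0.0045) and 1.23 (SE 0.26, adjusted p 0.00356). Nkx2-5, the homeobox factor of cardiomyocytes, went from 251, 193 and 105 to 326, 551 and 495 and rose by 1.37 (SE 0.43, adjusted p 0.0291). With Yap siRNA 2 of the 17 rose and 0 fell (4.80% of all genes were called), and with Wwtr1 siRNA 1 rose and 1 fell (8.96%).

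Of 23 mesenchymal factors measured of 26 listed, 11 rose and 2 fell in the double knockdown, with a median difference of 0.35. The nuclear receptor Nr2f1 went from 384, 347 and 435 normalized counts to 905, 894 and 1489 and rose by 1.46 (SE 0.20, adjusted p 0.000292). Prrx2, a homeobox factor of mesenchyme, rose by 1.29 (SE 0.20, adjusted p 0.000614), and the zinc-finger factor Osr2 rose by 1.23 (SE 0.19, adjusted p 0.000553). Sox9, the factor of cartilage and valve progenitors, went from 5067, 4683 and 6549 to 2408, 3682 and 1736 and fell by 1.11 (SE 0.25, adjusted p 0.00599). With Yap siRNA 3 of the 23 rose and 1 fell (4.80% of all genes were called), and with Wwtr1 siRNA 4 rose and 0 fell (8.96%). For the interaction, 1 factor of these 3 lists was called, lower, among the cofactors and cardiac muscle factors, where 1.03% of all genes were called.

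**Figure D4:**
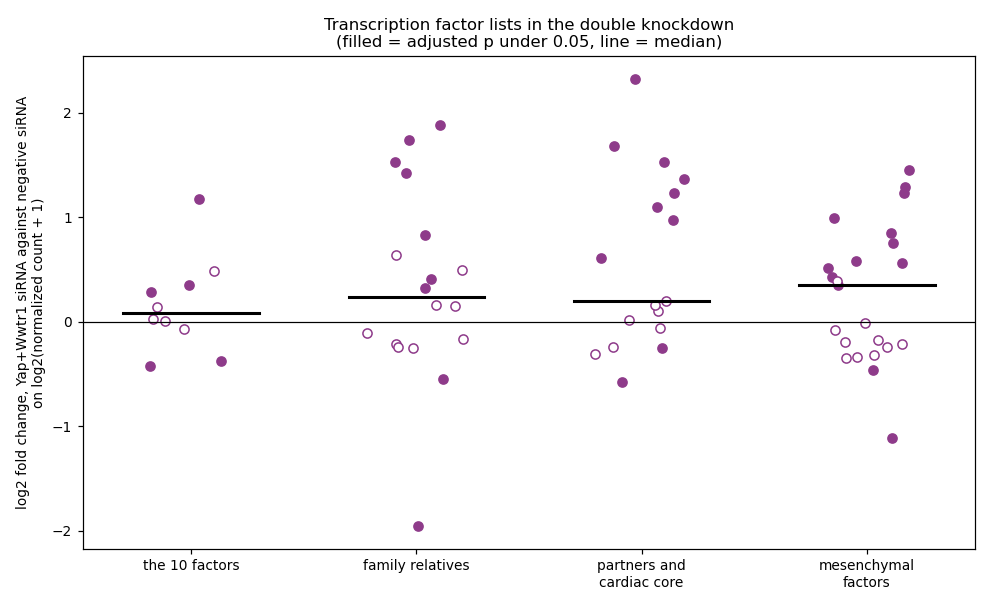
Log2 fold change in the double knockdown against negative siRNA (y axis) of the 10 factors and of 3 lists of related transcription factors (x axis). Each point is a gene, filled where the adjusted p is under 0.05, and lines are medians, which lie at 0.08 for the 10 factors, 0.24 for family relatives, 0.20 for partners and cardiac factors and 0.35 for mesenchymal factors.

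For each factor called in the double knockdown, the genes of most similar pattern were those with the smallest root mean square difference of centred log2 levels over the 12 libraries, among 10101 or 10102 genes with a mean of at least 100. For Tcf21 these were Pusl1 (0.118), Ythdf3 (0.122) and Adamts10 (0.124), beside a spread of Tcf21 itself of 0.242 (SD of its log2 levels). For Gata6 they were Atp5f1c (0.0467), Impdh2 (0.0491) and Zpr1 (0.0559), beside a spread of 0.158. For Hand2 they were Mon1a (0.0648), Fam110b (0.0678) and Plekhg5 (0.0733), beside 0.169. For Tbx18 they included Ctps2 (0.0603) and Mindy1 (0.0772), beside 0.159, and for Tbx5 Plscr1 (0.193), Btg2 (0.197) and Zfp423 (0.230), beside 0.484. None of the genes named here was on the lists of transcription factors or markers.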

How the data were processed

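RNA sequencing of 12 libraries of rat cardiac fibroblasts was analysed, with the groups and replicates that the sample titles give. The authors trimmed reads with Trim Galore 0.6.5, aligned them to rn6 with HISAT2 2, assembled transcripts with StringTie and compared groups with DESeq2. The signal values they deposited are gene counts over a size factor of each library, and 100% of the 147252 values were whole multiples of the library's step (tolerance 0.02). Whether a unit is a read or a mate is not known, and strand use and the treatment of reads shared by paralogs are not given in the sources used here. The authors' own tables of fold changes and p-values were not used.

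Values were tested as log2(normalized count + 1) with limma 3.58.1 in R 4.3.3 (lmFit, eBayes with a mean-variance trend), with all 12 libraries in 1 fit and no covariate. Entry required a mean of 10 normalized counts or more (11871 of 12271 genes). P-values are two-sided and Benjamini-Hochberg adjusted over these genes, with a threshold of 0.05. The logarithm of a value plus 1 understates changes of low genes such as Tbx5. The steps were tested on simulated data. Alternatives were other pseudocounts, filters and scalings, no trend, fits on the compared groups, a replicate block and the omission of libraries.

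Deviations from group means of same-numbered libraries correlated at 0.104 to 0.276 over 9 pairs among negative, Yap and Wwtr1 siRNA, so numbers were taken as pairing these groups. The 9 pairs with the double knockdown gave -0.127 to 0.180, so there a number was taken as a name only. Its pairs with Wwtr1 siRNA were all positive (0.180, 0.0678 and 0.0878), while those with negative and Yap siRNA had both signs. Blocked values stand in the report where they changed a call.

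All 10 factors were named, with Yap1 and Wwtr1 as the check of the knockdown. From each list of related factors the text names up to 4 called genes of largest change in the double knockdown with a mean of at least 100, and for each factor called there the 3 genes of most similar pattern, of which 1 is not reported here. The factors and lists were chosen with earlier results of these data known. Promoters come from RefSeq (GRCr8), and since the deposited values rest on rn6, their coordinates were not joined to the reads.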

Additional observations from a re-analysis of the deposited data

Results flagged for a closer look

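Gata4 differed between Yap and Wwtr1 siRNA. The log2 difference between the 2 single knockdowns was 0.51 (SE 0.06, adjusted p 0.000982 by limma, n = 3 libraries each), with all 3 Yap siRNA libraries above and all 3 Wwtr1 siRNA libraries below those with negative siRNA. It did not pass without replicate 1 or replicate 2 of every group (0.50 and 0.54, adjusted p 0.0534 and 0.064 by limma). This is a test of the difference itself, between the Yap and Wwtr1 siRNA libraries. The control libraries enter it only through the shared estimate of the spread. Groups of 3 libraries were not searched gene by gene for single outlying samples.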

How the results depend on the processing

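No call of a factor changed direction under any alternative. Pseudocounts of 0.1 and 10, no filter, TMM scaling and upper-quartile scaling kept every call of the 10 factors. A minimum mean of 100 took Tbx5 out of the test, which left 4 calls in the double knockdown. Without the trend 1 factor in place of 4 differed between double knockdown and Yap siRNA, and 4 in place of 2 between double knockdown and Wwtr1 siRNA (Tbx5 and Hand2 gained), where 11.2% and 17.4% of all genes were called. In fits of the compared groups alone, 1 factor differed between double knockdown and Yap siRNA, where 6.52% of genes did. The replicate block over 12 libraries added Hand2 against Wwtr1 siRNA and changed no other call. With the double knockdown left out, which was chosen after seeing the data, the block gave 2 factors for Yap siRNA, 3 for Wwtr1 siRNA and 3 for Yap against Wwtr1 siRNA. That fit called 16.0%, 21.3% and 22.6% of all genes, so the gained calls stand beside a higher background.

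Over the omissions of 1 library, and of 1 replicate number from every group (added after seeing the data), the factors called numbered 0 to 0 with Yap siRNA (0 to 6.44% of all genes), 0 to 2 with Wwtr1 siRNA (0.472 to 12%) and 1 to 5 in the double knockdown (15.3 to 34.2%). They numbered 0 to 3 for double against Yap (1.84 to 15.8%), 0 to 2 for double against Wwtr1 (3.55 to 19.7%), 0 to 2 for Yap against Wwtr1 (0.0253 to 11.9%) and 0 to 0 for the interaction (0 to 1.35%). Without replicate 2 of every group, Gata6 was the factor still called in the double knockdown against negative siRNA (-0.41, adjusted p 0.0317 by limma), and Gata6 passed there without replicate 1 or 3 of every group too. These fits hold fewer libraries and call fewer genes. The planned count models were not run, because the values are normalized and a check of their unit did not pass for every library. That check took the smallest value of a library as its step, unlike the step behind the recovered totals. With 3 libraries a group, the intervals of Tbx20, Wt1 and Meox1 include 0, and differences within them were not excluded.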
